A study of Mus musculus with 6 samples.

Results

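The genes described here make and use UDP-sugars, the uridine-linked sugars from which cells build glycans and the O-GlcNAc mark on proteins. A fixed list named 8 genes, *Ogt*, *Gfpt1*, *Gnpnat1*, *Pgm3*, *Uap1*, *Ugp2*, *Ugdh* and *Uxs1*, chosen by function. The choice was made with earlier results of these data known. Each of them was found among the 54838 genes of the count table. All 8 passed the filter on low counts, which left 11092 genes tested. Sorted leukemic cells came from mice that carried I1DN, a murine AML made by introducing IDH1R132H, DNMT3AR882H and NrasG12D into hematopoietic stem and progenitor cells of fetal liver. In both groups the leukemic cells carried these 3 alleles on a C57BL/6 background and grew in sublethally irradiated Ptprca recipients, which keep hematopoietic cells of their own. Vehicle was given to 3 mice and AG636, an inhibitor of dihydroorotate dehydrogenase (DHODH), to 3 others by oral gavage b.i.d. at 100 mg/kg body weight. The ages of the mice were not given in the sources used here, and the methods describe cells of a moribund mouse as the source of each transplant, so that the mice may not stand for separately arisen leukemias. Cells were taken from bone marrow and spleen, and the labels do not say which organ each library came from.

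DHODH is an enzyme of *de novo* pyrimidine synthesis, the route that supplies UMP and through it UTP. The hexosamine pathway joins UTP to an acetylated glucosamine to give UDP-GlcNAc, and a parallel route joins UTP to glucose to give UDP-glucose, from which UDP-glucuronate and UDP-xylose are made. OGT moves GlcNAc from UDP-GlcNAc onto nuclear and cytoplasmic proteins and OGA removes it, and both branches also feed the glycans of the cell surface and matrix. The comparison asks whether the transcripts of these enzymes differed in leukemic cells of mice that received the inhibitor.

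In the AG636 group 1 of the 8 genes was downregulated and 0 were upregulated at an adjusted p under 0.05. Unless another test is named, p-values are from the quasi-likelihood test of edgeR, and adjusted p-values were corrected over all genes tested by the method of Benjamini and Hochberg. At an unadjusted p under 0.05 there were 3 of the 8, *Uap1*, *Pgm3* and *Uxs1*, against 4112 of all 11092 genes tested, a like share. Over all genes tested 21.3% were called, 10.3% as higher and 11.0% as lower, so that 1 of 8 was not above the share over all genes. With library size alone as the scaling, 1483 genes were called higher and 913 lower in place of 1146 and 1222, and 0 of the 8 genes were called. The groups did not overlap for 4 of the 8 genes, *Gfpt1*, *Pgm3*, *Uap1* and *Uxs1*, against 41.1% of all genes tested. The median log2 fold change of the 8 genes was -0.02 and that of all genes tested was 0.03. By branch, the 4 hexosamine genes had negative log2 fold changes and *Ogt* and the 3 genes of the UDP-glucose branch had positive ones, from -0.74 for *Pgm3* to 0.40 for *Uxs1*. The division by branch follows the reactions these enzymes catalyze and was made with the values known, so it was not tested.

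**Figure D1:**
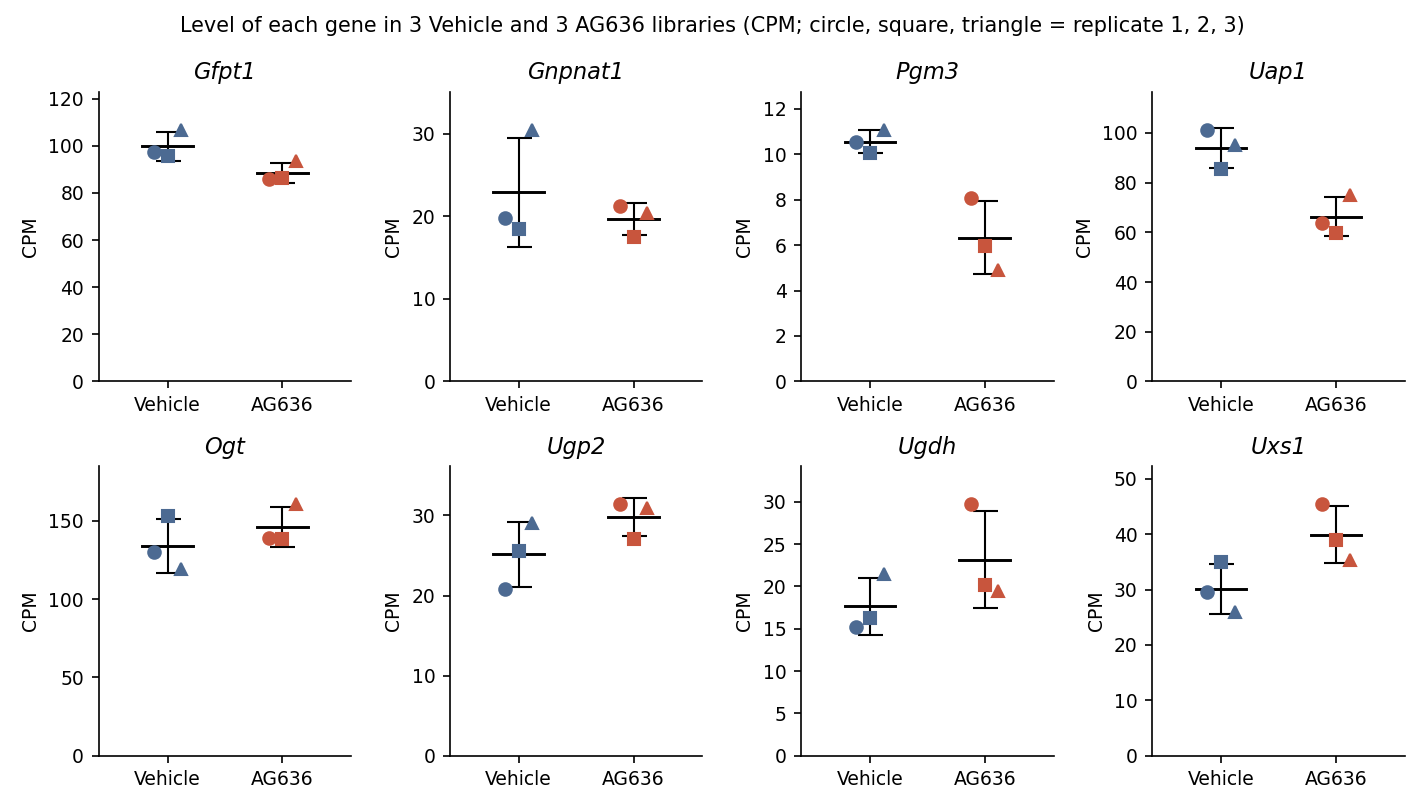
Level of each of the 8 genes in CPM (vertical axis, from 0) in 3 vehicle and 3 AG636 libraries, with the mean and SD of each group as bars. *Pgm3*, *Uap1*, *Gfpt1* and *Uxs1* have groups that do not overlap, and *Gnpnat1* has 1 high vehicle library at 30.5 CPM.

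Total counts ranged from 4634963 to 7906589 per library, and the unit of level is CPM, a count scaled to a common library size. A count of 3, taken as the floor, corresponded to between 0.392 and 0.637 CPM, and every member lay well above it. Libraries were read from the ends of transcripts, so a level is not divided by gene length and levels of different genes are not ranked here. *Kit*, the gene of the marker on which the cells were sorted, had between 31.8 and 46.3 CPM in all libraries. *Itgam*, which encodes CD11b, the marker that the gate kept low or absent, rose from between 12.1 and 27.0 CPM with vehicle to between 31.3 and 60.1 with AG636 (log2 fold change 1.21, adjusted p = 0.0219 in edgeR). Of 8 immature cell and sort markers 2 rose, *Itgam* and *Ptprc*, with a summed level of 2266 to 4514 CPM with vehicle and 1793 to 4499 with AG636. Of 10 mature neutrophil markers 10 were higher and 7 passed the threshold, where 10.3% of all genes tested were called higher. Their summed level was 1088 to 2460 CPM with vehicle and 3006 to 6061 with AG636. *S100a8*, which gave the most counts of this list, had 484.2 to 1339 CPM with vehicle and 1328 to 3150 CPM with AG636. These ranges overlap, and it was not called (adjusted p = 0.0872 in edgeR). Of 10 macrophage and monocyte markers 7 were tested and 2 rose, with a summed level of 55.6 to 77.9 CPM against 103.5 to 148.5. Of 10 erythroid markers 9 were lower and 2 passed the threshold, with a median log2 fold change of -0.82. Their sums were 1882 to 5092 CPM with vehicle and 2011 to 3547 with AG636. Of 5 megakaryocyte and platelet markers 4 were tested and 2 rose, with sums of 774 to 1207 and 1045 to 1699. This list was mixed, as seen in markers named after their values were seen. *Ppbp* was lower without overlap but not called (log2 fold change -0.74, adjusted p = 0.0534 in edgeR). *Gp1bb*, not tested, had 35 counts with vehicle and 7 with AG636. Of 8 B cell, 8 T and NK cell and 7 endothelial and stromal markers, 4, 3 and 1 were tested and 0 were called. Their sums were 39.2 to 77.0 and 44.4 to 113.6 CPM for B cells, 206.8 to 346.8 and 270.3 to 507.4 for T and NK cells and 105.4 to 178.2 and 151.9 to 245 for endothelium and stroma. The last pair of sums each rest on 1 gene, named after its values were seen: *Nkg7* had 191.1 to 492.5 CPM with each other T and NK cell marker at most 10.2, and *Pecam1* had 103.2 to 244.8 CPM with each other marker of its list at most 1.605. *Cd79a* of B cells reached at most 1.51 CPM, *Cd3e* of T cells at most 0.619, and *Cdh5* of endothelium had 0 counts in every library. In such bulk libraries fewer cells of a type and less RNA per cell cannot be told apart, and the part of these markers in the results below was not tested.

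The last step of the hexosamine pathway carried the only call. *Uap1* encodes UDP-N-acetylglucosamine pyrophosphorylase, which joins UTP to the acetylated sugar phosphate and so is the step that spends the pyrimidine nucleotide. It lies on chromosome 1 from 170141938 to 170174957 of mm10, on the minus strand. Its level was 101.3, 85.4 and 95.3 CPM in vehicle replicates 1 to 3 and 63.9, 59.8 and 74.9 CPM in AG636 replicates 1 to 3. Every AG636 library was below every vehicle library. The means were 94.0 ± 8.01 and 66.2 ± 7.83 CPM (SD, n = 3 mice each), so that the AG636 mean was 70.5% of the vehicle mean. The log2 fold change was -0.50 with a standard error of 0.14 and a 95% interval from -0.81 to -0.20 (adjusted p = 0.0290 in edgeR). An exact permutation test of 3 mice against 3 gave a two-sided p of 0.1, the smallest it allows. The direction held in all 15 alternatives, in which the adjusted p of the fit ranged from 0.01003 to 0.0907. With 5 mice the call was kept only without AG636 replicate 3, with an adjusted p of 0.0463 in edgeR. In edgeR it was lost, with the adjusted p given in brackets, without vehicle replicate 1 (0.0808), 2 (0.0509) or 3 (0.0509) and without AG636 replicate 1 (0.0907) or 2 (0.0683).

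*Pgm3* encodes phosphoacetylglucosamine mutase, which acts directly before *Uap1* and moves the phosphate on the sugar. The gene lies on chromosome 9 from 86554377 to 86571842, on the minus strand. It had 10.5, 10.1 and 11.1 CPM with vehicle and 8.07, 5.98 and 4.91 CPM with AG636, from 189 and 93 counts in all. The groups did not overlap, and vehicle libraries were closer together than AG636 libraries. The means were 10.6 ± 0.502 and 6.32 ± 1.61 CPM (SD, n = 3), and the AG636 mean was 59.9% of the vehicle mean, the lowest percentage of the 8 genes. The log2 fold change was -0.74 with a standard error of 0.26 and a 95% interval from -1.31 to -0.17, and the adjusted p was 0.0649 (edgeR), so it did not pass the threshold. Of the tested genes 7.0% had a lower log2 fold change. The last 500 exon bases of *Pgm3*, where libraries of transcript ends take most of their reads, all lie within exons of *Dop1a* on the opposite strand. *Dop1a* had 898 counts against 282 for *Pgm3* and moved the other way, with a log2 fold change of 0.56 (adjusted p = 0.0336 in edgeR). The use of strand in counting is not given in the sources used here, so the counts of this pair are uncertain. Thinning all libraries to the smallest total, which left fewer reads, gave -0.53 for *Pgm3*.

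*Gfpt1* encodes the glutamine:fructose phosphate amidotransferase that opens the pathway and limits its rate. On chromosome 6 from 87042846 to 87092197, on the plus strand, it had 97.2, 95.5 and 106.8 CPM with vehicle and 85.8, 86.2 and 93.4 CPM with AG636. The highest AG636 library was just below the lowest vehicle library. The means were 99.8 ± 6.09 and 88.5 ± 4.30 CPM (SD, n = 3), and the log2 fold change of -0.17 did not pass the threshold (standard error 0.12, 95% interval from -0.44 to 0.09, adjusted p = 0.318 in edgeR). This interval does not reach a log2 change of -0.50, the value of *Uap1*, but the difference between these genes was not tested. *Gfpt2*, the second amidotransferase, had between 2 and 5 counts per library and was not tested, so that nearly all amidotransferase reads came from *Gfpt1*.

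*Gnpnat1* encodes the acetyltransferase that follows. It lies on chromosome 14 from 45376334 to 45404913, on the minus strand. Its level was 19.8, 18.4 and 30.5 CPM with vehicle and 21.2, 17.5 and 20.4 CPM with AG636. Vehicle replicate 3 stood above the other 5 libraries, which overlapped. The means were 22.9 ± 6.61 and 19.7 ± 1.94 CPM (SD, n = 3), and the log2 fold change was -0.21 with a standard error of 0.22 (adjusted p = 0.535 in edgeR). Without vehicle replicate 3 it was 0.024. The last 500 exon bases of *Gnpnat1* lie within exons of *Styx* on the opposite strand, which had 175 counts against 691 and a log2 fold change of -0.25 (adjusted p = 0.581 in edgeR).

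**Figure D2:**
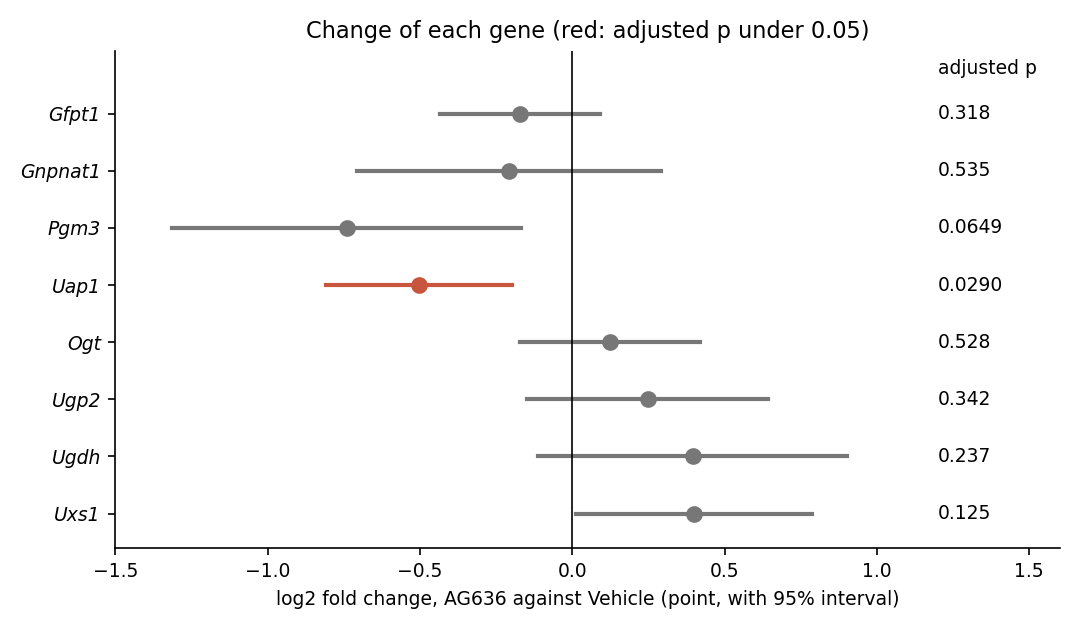
Log2 fold change of each gene, AG636 against vehicle (horizontal axis), as a point with its 95% interval, and the adjusted p at the right. *Uap1*, in red, is the gene past the threshold, and the intervals of *Pgm3* and *Uxs1* leave out 0 without passing it.

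Sequences before the start sites of *Uap1*, *Pgm3*, *Gfpt1* and *Ogt* are shown as a description, and those of *Ugp2*, *Ugdh* and *Uxs1* are not printed. The choice was made with the fold changes known, and of the genes shown only *Uap1* was called. A link between sequence and fold change was not tested. RefSeq gave promoter windows of 300 bases, from 250 before to 50 after the start site, for 7 of the 8 genes (GRCm38.p6), and none was matched for *Gnpnat1*. The 250 bases before the start are printed 5′ to 3′ on the strand of the gene, with CCAAT boxes of either strand (CCAAT or ATTGG) in capitals. They lie at chr1:170174965-170175214 on the minus strand for *Uap1*, chr9:86571843-86572092 on the minus strand for *Pgm3*, chr6:87042596-87042845 on the plus strand for *Gfpt1* and chrX:101639801-101640050 on the plus strand for *Ogt*, for which another window was also listed.

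Uap1: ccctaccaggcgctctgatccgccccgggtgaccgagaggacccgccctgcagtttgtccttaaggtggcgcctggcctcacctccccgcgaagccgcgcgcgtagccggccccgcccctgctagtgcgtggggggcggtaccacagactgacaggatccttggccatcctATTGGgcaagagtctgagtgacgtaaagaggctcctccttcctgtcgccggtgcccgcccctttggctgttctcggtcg
Pgm3: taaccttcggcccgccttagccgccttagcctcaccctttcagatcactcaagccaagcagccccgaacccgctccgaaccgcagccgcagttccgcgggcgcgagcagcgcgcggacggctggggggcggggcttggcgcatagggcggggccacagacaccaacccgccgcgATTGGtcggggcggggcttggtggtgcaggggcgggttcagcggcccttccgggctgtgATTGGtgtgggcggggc
Gfpt1: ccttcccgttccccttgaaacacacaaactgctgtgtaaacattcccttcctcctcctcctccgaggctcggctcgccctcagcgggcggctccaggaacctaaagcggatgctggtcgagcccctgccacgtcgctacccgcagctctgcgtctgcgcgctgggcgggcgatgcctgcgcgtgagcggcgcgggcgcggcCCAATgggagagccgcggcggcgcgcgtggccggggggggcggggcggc
Ogt: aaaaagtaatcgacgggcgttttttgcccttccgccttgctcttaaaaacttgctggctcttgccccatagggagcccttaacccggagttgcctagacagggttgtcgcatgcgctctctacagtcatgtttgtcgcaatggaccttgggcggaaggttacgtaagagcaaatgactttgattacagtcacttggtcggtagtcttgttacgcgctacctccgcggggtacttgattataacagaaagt

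A CCAAT box was found in the windows of *Uap1*, *Pgm3*, *Gfpt1* and *Ugp2*, which is 4 of the 9 windows of these 7 genes, since *Ogt* and *Ugp2* have a pair of windows each and the other *Ugp2* window held none. Of all 32851 windows 37.4% hold one. The E-box CACGTG bound by MYC and related factors, which 7.2% of all windows hold, was in 0 of the 9 windows. The ETS motif CCGGAAGT (3.9% of windows) and the YY1 motif AANATGGCG (2.4%) were also in 0 of them, on either strand. The same was true of the C/EBP-ATF motif TGATGNAA (4.0%) and the unfolded protein response element TGACGTGG (0.7%). Only exact matches were counted, so near matches are missed. Each *Ogt* window holds CGCCATTTC, which differs from the YY1 motif, read on the other strand, in its last base only. The *Uap1* window holds TGACGTGT, which differs from the unfolded protein response element in its last base only. The same holds on the other strand for CCACGTCG in the *Gfpt1* window and CCACGTCT in the *Pgm3* window. Near matches were not counted over all windows, so no share can be set beside these. Windows of the hexosamine and UDP-glucose genes were rich in G and C, from 63.3% to 76.0%, and the *Ogt* windows held 51.0% and 48.3%, against a median of 52.7% for all windows.

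*Ogt* encodes the single transferase that places O-GlcNAc on nuclear and cytoplasmic proteins. It lies on chromosome X from 101640060 to 101684351, on the plus strand. Its level was 130.0, 152.9 and 119.1 CPM with vehicle and 139.1, 138.8 and 160.8 CPM with AG636. The groups overlapped, with vehicle replicate 2 above AG636 replicates 1 and 2. The means were 134.0 ± 17.3 and 146.2 ± 12.6 CPM (SD, n = 3). The log2 fold change was 0.12 with a standard error of 0.13 and a 95% interval from -0.17 to 0.42 (adjusted p = 0.528 in edgeR). A decrease of *Ogt* transcripts below -0.17 on the log2 scale lies outside this interval. Across the alternatives the value ranged from 0.03 to 0.22.

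*Oga*, listed in the annotation by its older symbol *Mgea5*, encodes the hydrolase that removes the mark. It had 103.9, 119.8 and 112.2 CPM with vehicle and 134.0, 148.5 and 147.4 CPM with AG636. Every AG636 library was above every vehicle library. The log2 fold change was 0.36 with a standard error of 0.12, and the adjusted p of 0.0553 did not pass the threshold (edgeR). With library size alone as the scaling it was 0.44 and passed. The ratio of *Ogt* to *Oga* counts within a library, which library scaling cannot move, was 1.25, 1.28 and 1.06 with vehicle and 1.04, 0.935 and 1.09 with AG636. Vehicle replicate 3 lay among the AG636 libraries. On the log2 scale the ratio was 0.25 ± 0.15 and 0.03 ± 0.11 (SD, n = 3), a difference of -0.23 (exact permutation test, two-sided, p = 0.2, where 0.1 is the smallest that 3 mice against 3 allow).

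**Figure D3:**
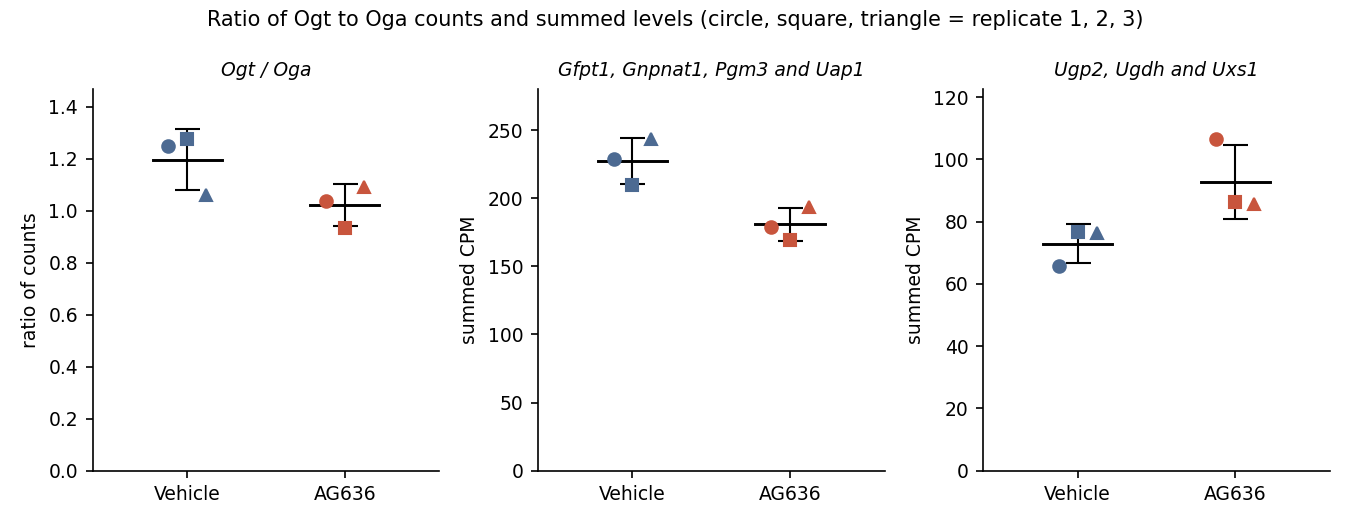
Ratio of *Ogt* to *Oga* counts (left), summed CPM of the 4 hexosamine genes (middle) and of the 3 UDP-glucose branch genes (right) in each library, with means and SD as bars. Summed levels of the hexosamine genes were 209.4 to 243.6 CPM with vehicle and 169.5 to 193.7 with AG636, and the *Ogt* to *Oga* ratios of the groups overlap.

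The UDP-glucose branch opens with *Ugp2*, which encodes UDP-glucose pyrophosphorylase and, like *Uap1*, spends UTP. It lies on chromosome 11 from 21321138 to 21371201, on the minus strand. It had 20.9, 25.5 and 29.0 CPM with vehicle and 31.4, 27.0 and 31.0 CPM with AG636. AG636 replicate 2 was below vehicle replicate 3, so the groups overlapped. The means were 25.1 ± 4.10 and 29.8 ± 2.43 CPM (SD, n = 3), with a log2 fold change of 0.25 and a standard error of 0.18 (95% interval from -0.15 to 0.64, adjusted p = 0.342 in edgeR). The 95% intervals of the 2 pyrophosphorylases did not overlap, since that of *Uap1* ended at -0.20, and a test of the difference itself was not made.

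*Ugdh* encodes UDP-glucose dehydrogenase, which oxidizes UDP-glucose to UDP-glucuronate. On chromosome 5 from 65413221 to 65435949, on the minus strand, it had 15.2, 16.2 and 21.5 CPM with vehicle and 29.7, 20.2 and 19.4 CPM with AG636. AG636 replicate 1 was far above the other libraries, and without it the log2 fold change went from 0.40 to 0.17. The means were 17.6 ± 3.41 and 23.1 ± 5.73 CPM (SD, n = 3), and the change did not pass the threshold (standard error 0.23, 95% interval from -0.11 to 0.90, adjusted p = 0.237 in edgeR).

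*Uxs1* encodes UDP-glucuronate decarboxylase, which turns UDP-glucuronate into UDP-xylose, the sugar that starts the glycan chains of proteoglycans. On chromosome 1 from 43746966 to 43827800, on the minus strand, it had 29.6, 34.9 and 25.9 CPM with vehicle and 45.5, 39.0 and 35.3 CPM with AG636. The groups were separate, though AG636 replicate 3 and vehicle replicate 2 were nearly equal. The means were 30.1 ± 4.53 and 39.9 ± 5.14 CPM (SD, n = 3), and the AG636 mean was 132.4% of the vehicle mean. The log2 fold change was 0.40 with a standard error of 0.17 and a 95% interval from 0.01 to 0.79 (unadjusted p = 0.0450, adjusted p = 0.125 in edgeR), so it did not pass. Summed levels of *Ugp2*, *Ugdh* and *Uxs1* were 65.6, 76.7 and 76.5 CPM with vehicle and 106.6, 86.2 and 85.7 CPM with AG636, which is given as a description.

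**Figure D4:**
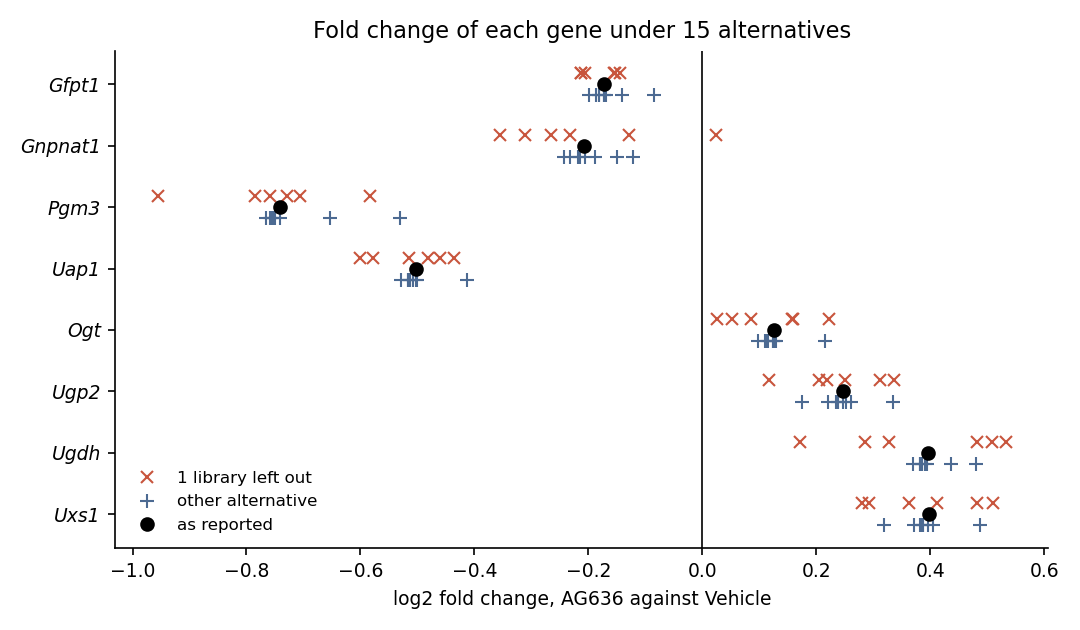
Log2 fold change of each gene (horizontal axis) as reported (black points), with 1 library left out (crosses) and under the other alternatives (plus signs). *Gnpnat1* crosses 0, at 0.024 without vehicle replicate 3, and the other 7 genes stay on 1 side of 0.

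The genes whose pattern over the 6 libraries was most like *Ogt* were *Mcm3ap*, *Fzr1* and *Inpp5a*, with Pearson correlations of log2 CPM of 0.988, 0.982 and 0.973. Those most like *Gfpt1* were *Anp32e*, *Herpud1* and *Ppt2*, with 0.996, 0.995 and 0.990. They are the highest over all genes tested, rest on 6 points that share their libraries and groups, and are given as a description.

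Other genes of nucleotide-sugar metabolism were counted from lists drawn up by function, with earlier results of these data known. Of 90 listed genes 77 were tested, and 4 rose and 7 fell with AG636. That is 14.3% of them against 21.3% of all genes tested, and their median log2 fold change was -0.09. The counts of each list below stand beside 10.3% of all genes tested called higher and 11.0% called lower. The counts over all 77 depended on single libraries: 1 gene rose without vehicle replicate 1 or 2 or AG636 replicate 1 or 3, 2 rose without AG636 replicate 2, 4 fell without vehicle replicate 2 or AG636 replicate 1 and 3 fell without AG636 replicate 3. The gene with the largest increase was *Slc35d2*, a Golgi transporter of UDP-sugars, and the gene with the largest decrease among those called was *Gmppb*, which makes GDP-mannose.

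In the remaining hexosamine and O-GlcNAc list 8 of 9 genes were tested, and 7 were higher in mean, against 5801 of all 11092 genes tested. Of the 8, 1 passed the threshold, and the median log2 fold change was 0.26. *Gnpda2*, a glucosamine phosphate deaminase that works against the direction of *Gfpt1*, rose from 13.4, 12.7 and 16.7 CPM with vehicle to 21.9, 33.8 and 20.4 CPM with AG636. The groups did not overlap, and AG636 replicate 2 was the highest. Its log2 fold change was 0.84 with a standard error of 0.24 (adjusted p = 0.0329 in edgeR). The adjusted p of the same test was 0.0600 with a replicate block, 0.0830 and 0.109 without vehicle replicates 1 and 2, and 0.0567 and 0.0857 without AG636 replicates 1 and 2. The last 500 exon bases of *Gnpda2* lie within exons of *Guf1* on the opposite strand, which had a log2 fold change of -0.54, so counts of this pair are uncertain too. *Uap1l1*, a gene like *Uap1*, had 15.5, 25.6 and 18.8 CPM with vehicle and 22.9, 20.4 and 26.2 CPM with AG636, groups that overlapped, and a log2 fold change of 0.21 with a standard error of 0.22 (adjusted p = 0.523 in edgeR).

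Among enzymes that use UDP-GlcNAc for N-glycans 10 of 11 were tested and 1 passed the threshold, downwards, with a median of -0.19. *Dpagt1*, which moves GlcNAc phosphate from UDP-GlcNAc onto the lipid carrier in the first step of N-glycan synthesis, fell from 66.3 ± 8.81 to 40.8 ± 4.70 CPM (SD, n = 3). Its log2 fold change was -0.70 with a standard error of 0.16 (adjusted p = 0.0142 in edgeR), and the adjusted p was 0.0576 without vehicle replicate 2. In the UDP-glucose and UDP-galactose list 16 of 18 genes were tested, and 10 were lower in mean, against 5291 of all 11092 genes tested. Of the 16, 1 passed, downwards, and the median was -0.15. *Galk1*, the galactokinase that brings galactose into this pool, fell from 72.6, 105.3 and 99.0 CPM with vehicle to 58.4, 52.0 and 54.7 CPM with AG636. The groups did not overlap. Its log2 fold change was -0.75 with a standard error of 0.16 (adjusted p = 0.0126 in edgeR). The call at an adjusted p under 0.05 held in all 15 alternatives, and *Galk1* was not called at an adjusted p under 0.01.

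Among users of UDP-glucuronate and UDP-xylose 18 of 25 genes were tested, 1 passed, upwards, and the median was -0.03. *Csgalnact2*, which starts chondroitin chains, rose from 132.2 ± 24.5 to 201.1 ± 32.6 CPM (SD, n = 3), with a log2 fold change of 0.61 and a standard error of 0.17 (adjusted p = 0.0295 in edgeR). The adjusted p of the same test was 0.0976 and 0.103 without vehicle replicates 1 and 2 and 0.0856 and 0.109 without AG636 replicates 1 and 3.

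Sugars carried by CMP and GDP had 12 of 13 genes tested, of which 3 fell and 1 rose, with a median of -0.19. Of all genes tested 11.0% were called lower and 10.3% higher, and the share of this short list was not tested against these. *Gmppb*, the catalytic subunit of GDP-mannose pyrophosphorylase, had 36.4, 44.7 and 39.5 CPM with vehicle and 21.5, 22.9 and 21.0 CPM with AG636, with no overlap. Its log2 fold change was -0.89 with a standard error of 0.16 (adjusted p = 0.00680 in edgeR), and the call held in all 15 alternatives. Of its last 500 exon bases 262 are shared with *Rnf123* on the opposite strand, which had a log2 fold change of -0.28. *Pmm1*, a phosphomannomutase that feeds the same route, fell by 0.81 on the log2 scale (standard error 0.23, adjusted p = 0.0353 in edgeR). Its adjusted p by the same test was 0.0968 and 0.105 without vehicle replicates 1 and 2 and 0.0607 and 0.120 without AG636 replicates 1 and 3. For sialic acid, *Nanp*, the phosphatase of its synthesis, fell by 0.56 and *Cmas*, which joins it to CMP, rose by 0.49 on the log2 scale (adjusted p = 0.0479 and 0.0493 in edgeR). These calls were near the threshold and were lost in 9 and 10 of the 15 alternatives. In edgeR *Nanp* had an adjusted p from 0.0686 to 0.128 without vehicle replicate 1 or 2 or any AG636 replicate, and *Cmas* had 0.0506 to 0.146 without any of the 6 libraries.

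**Figure D5:**
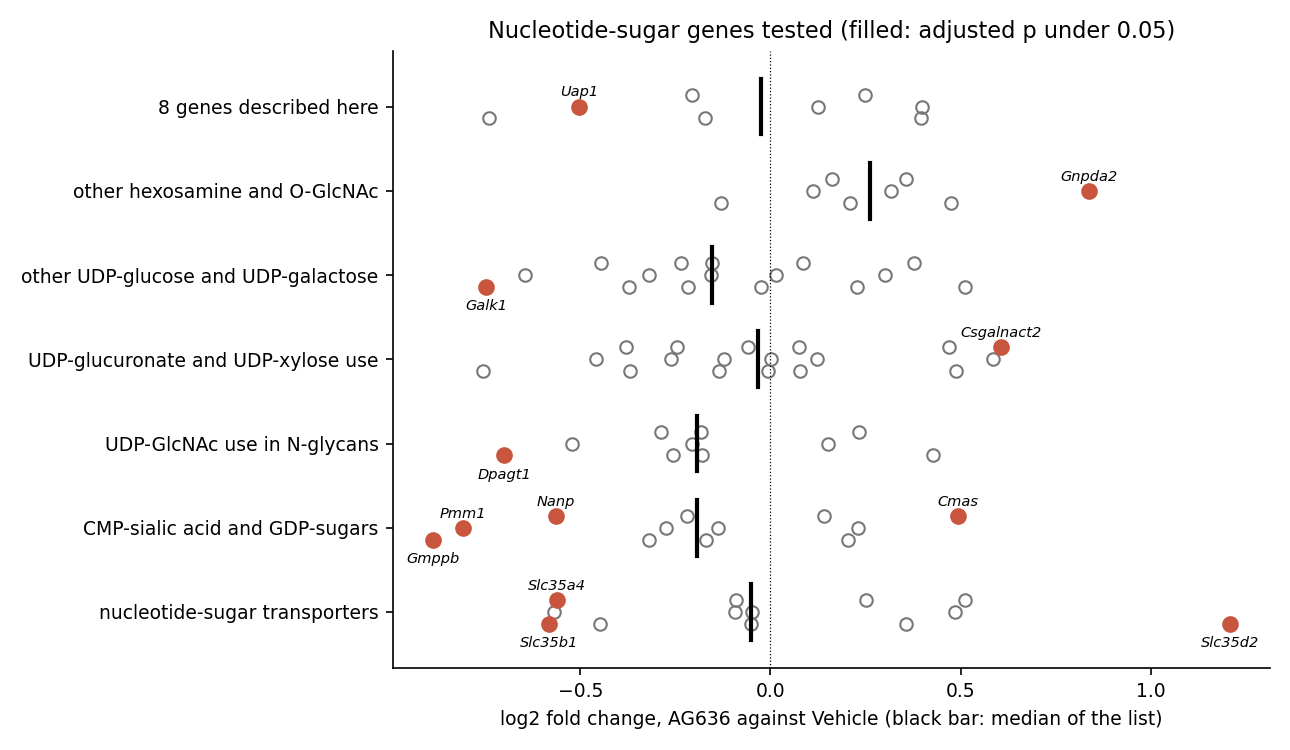
Log2 fold change (horizontal axis) of each tested gene in the 8 genes described here and in 6 other lists, with genes past an adjusted p of 0.05 filled and named and the median of each list as a black bar. *Uap1* is the filled point of the first list, and *Slc35d2* at 1.21 lies farthest from 0.

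Of 14 genes listed as nucleotide-sugar transporters 13 were tested, 1 rose and 2 fell, with a median of -0.05. Not every gene of this list is known to carry a nucleotide sugar, and *Slc35b1* is among those that are not. *Slc35d2* had 4.28, 6.67 and 4.18 CPM with vehicle and 12.7, 10.9 and 11.9 CPM with AG636. The groups were well apart. Its log2 fold change was 1.21 with a standard error of 0.27 (adjusted p = 0.0139 in edgeR), and the adjusted p was 0.0509 without AG636 replicate 3. *Slc35b1* and *Slc35a4*, members of the same transporter family, fell by 0.58 and 0.56 on the log2 scale (adjusted p = 0.0152 and 0.0155 in edgeR). In edgeR their adjusted p was 0.0523 and 0.0557 without AG636 replicate 1 and 0.0640 and 0.0592 without AG636 replicate 3.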

How the data were processed

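RNA sequencing libraries of sorted I1DN cells (Vehicle, 3 mice, and AG636, 3 mice) were used, with groups and replicate numbers from the submitters' labels. The authors deposited counts, the number of reads assigned to each gene, without normalization. Libraries were made with a kit for transcript ends, after which cutadapt trimmed the reads, HISAT2 placed them on mm10 (GRCm38) and featureCounts of the Subread package counted them. The submitters' processing notes give cutadapt 1.9.1, HISAT2 2.0.4 and Subread 1.5.0-p3, and the methods name other versions. The annotation release, the use of strand and the treatment of reads with several matches are not given in the sources used here. Treatment time and sort gate are described differently in different places and are not restated. The deposited length of each gene, in bases, was not used.

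Symbols were taken from GENCODE M21 for 54809 of 54838 identifiers, 98.7% of which matched in start and end. Genes were kept by filterByExpr (minimum count 10, minimum total 15), scaled with TMM and compared in R 4.3.3 with edgeR 4.0.16 (quasi-likelihood test, Benjamini-Hochberg adjustment over 11092 genes, threshold 0.05). The standard error is the log2 fold change divided by the square root of F. Exact permutation tests used log2(CPM + 0.1). With 3 mice against 3, p-values set a difference against the spread between these mice, and in edgeR that spread was moderated over all genes tested. The floor of 3 counts covers counting error only. The members, lists and tests were chosen with earlier results of these data known. Named genes were the 8 members, *Oga*, *Gfpt2*, *Uap1l1*, list genes past the threshold (at most 4 in each direction per list), and the 3 genes most correlated with *Ogt* and with *Gfpt1*; *Dop1a*, *Styx*, *Guf1* and *Rnf123* were added for their overlaps. Pairs of replicates differed by chi-square per degree of freedom of 6.67 to 15.9, above sampling noise. Fits were tested on simulated data. A limit first set on the share of changes recovered was not met and was replaced by limits on bias, wrong signs and false calls, which were met. In that test most changes of 1.5-fold did not pass the threshold at this group size, so a gene that was not called is not shown to be unchanged. Alternatives were DESeq2 1.42.0, limma-voom (limma 3.58.1), other scalings, filters and thresholds, thinning, a replicate block and leaving out each mouse. The other thresholds were applied to counts of genes called, so the 15 alternatives of a single gene do not include them.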

Additional observations from a re-analysis of the deposited data

How the results depend on the processing

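Of the 8 genes, *Ogt*, *Gfpt1*, *Pgm3*, *Ugp2*, *Ugdh* and *Uxs1* kept their direction and were not called in any of the 15 alternatives. *Gnpnat1* did so in 14, and its log2 fold change ran from -0.35 to 0.024 with 1 mouse left out, the latter without vehicle replicate 3. *Uap1* kept its direction in all 15 and its call in 9, with a log2 fold change of -0.41 and an adjusted p of 0.0568 in edgeR with library size alone, and values from -0.60 to -0.44 with 1 mouse left out. Fits with 1 mouse left out have fewer samples. The number of the 8 genes called lower was 0 with library size alone, at an adjusted p under 0.01 and at a fold change of at least 1.5, and 0 to 1 with 1 mouse left out. With library size alone the median log2 fold change of all genes was 0.12 rather than 0.03. Among the other pathway genes, 7 were called higher with library size alone and 0 at an adjusted p under 0.01. There, 1 was called lower at an adjusted p under 0.01 and 4 at a fold change of at least 1.5. Leaving out 1 mouse gave 1 to 4 genes higher and 3 to 7 lower. Over all genes, an adjusted p under 0.01 left 231 higher and 325 lower, and leaving out 1 mouse gave 399 to 1074 higher and 452 to 1298 lower.

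Same-numbered mice were not treated as pairs. Their deviations from the group means correlated at -0.06, -0.18 and 0.22 for replicates 1, 2 and 3. The last is over 0.1, the value set for pairing, so the correlations were mixed. These values do not settle whether same-numbered mice share more than a number. With a replicate block 914 genes were called higher and 1046 lower, *Uap1* had a log2 fold change of -0.51 and an adjusted p of 0.0382 in edgeR, and of the genes named the block ended the calls of *Gnpda2* and *Nanp*. Groups of 3 mice are too small for a check of single outlying samples. Low counts limit *Pgm3*, with 26 to 77 per library.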
